A study of Mus musculus with 4 samples.

Results

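The transcripts of the Runx family of DNA-binding factors (Runx1, Runx2 and Runx3), of their shared partner Cbfb, and of the ETO family of corepressors (Runx1t1, Cbfa2t2 and Cbfa2t3) were followed in sorted mouse preproB cells. The members were taken by gene name, and all of their probes were used: 12 probes for 7 genes, out of 39429 probes for 31660 gene names on the array. PreproB cells are among the earliest B-cell progenitors. They had been sorted from C57BL/6 marrow by the absence of lineage markers, BP1 and CD24 and the presence of B220 and CD43. In the EnhDel group (n = 2) the mice were Enh(f/f);Mx1-Cre, with loxP sites around the enhancer 37 kb from Cebpa and a Cre recombinase driven by the interferon-inducible Mx1 promoter. In the control group (n = 2) the mice were Enh(f/f) without Cre, so they carried the same loxP sites. Mice of both groups had received 3 doses of pIpC, an RNA mimic of viral infection that switches on interferon and with it Mx1-Cre, and marrow was taken 5 weeks later. The labels give 24 weeks of age and male sex for EnhDel replicates 1 and 2 and for control replicate 2, and 26 weeks and female sex for control replicate 1.

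Runx proteins bind DNA through a conserved Runt domain and can activate or repress, depending on the cofactors at a site. Cbfb does not touch DNA itself but raises the affinity of each Runx protein for its site and protects it from breakdown. ETO proteins bind no DNA sequence of their own, and bridge DNA-binding factors to histone deacetylase complexes. In marrow, Runx1 is needed for early B-cell development and is known to bind the Cebpa enhancer that was targeted here. The human genes of Runx1, Cbfb and ETO proteins are known from fusion proteins of acute myeloid leukaemia.

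The comparison asked how expression in preproB cells differed when the Cebpa enhancer could be deleted. Only the EnhDel mice carried Mx1-Cre, so effects of Cre and of the lost enhancer cannot be told apart. Mx1-Cre acts in many cell types besides preproB cells, and the arrays read transcripts, not the deleted DNA. Whether a sample held cells of 1 mouse or of several is not given in the sources used here, so the p-values reflect only how far these 4 samples lie apart, which may be technical in part.

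Levels are given below as scaled signal, the background-subtracted brightness of a probe after every array was brought to the same 75th percentile. Differences are log2, EnhDel minus control, so a negative one means lower in EnhDel. Before scaling, the 75th percentile of signal lay between 969 and 1136, and 59.6% to 64.9% of probes were well above background (Agilent's flag for a spot brighter than its surroundings). The EnhDel arrays lay further from each other than the control arrays did, with an SD of log2 differences of 0.611 in EnhDel and 0.333 in control. In limma's fit, 0 of 19405 tested genes (0%) passed a Benjamini-Hochberg adjusted p of 0.05, and 2134 had an unadjusted p under 0.05. Leaving out an array leaves a lone array in its group, which the fit then assumed to vary like the other group. For single genes, such fits are used below for the size of a difference only.

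EnhDel replicate 2, labelled male, read Xist, the X-inactivation RNA of female cells, at 597 and well above background. EnhDel replicate 1, control replicate 1 and control replicate 2 read Xist at 5.69, 5.07 and 3.65, not well above background. The 4 Y-linked genes examined were well above background on every array, control replicate 1 with its female label included. Ddx3y, for example, read 3882 and 1559 in EnhDel and 3187 and 3173 in control. Whether samples were exchanged or mixed was not tested, and if they were, the differences below would not compare the labelled groups. Each member is therefore also given without EnhDel replicate 2 and without control replicate 1.

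Cebpa, the gene whose enhancer was targeted, read 134 and 286 in EnhDel and 1300 and 847 in control. The groups did not overlap. Cebpa was 5.35-fold lower in EnhDel, a log2 difference of -2.42 ± 0.45 (SE, 2 arrays per group) with a limma adjusted p (Benjamini-Hochberg) of 0.248. The difference was -1.40 after normexp background correction, and -1.87 with EnhDel replicate 1 left out.

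Cell-type markers were set beside the members as summed scaled signal. Plasmacytoid dendritic cell markers, led by Irf8, Bst2, Siglech and Ly6d, summed to 1281968 and 1176445 in EnhDel and 1302750 and 1187377 in control, and 12 of 12 were well above background on every array. B-lineage and gate markers summed to 147552 and 134100 in EnhDel and 159186 and 162324 in control. Of the 10 tested, 8 were lower in EnhDel with no overlap and 0 higher, with a median difference of -0.82. Among all genes, 16.7% were lower with no overlap and 27.2% higher. Vpreb1, which encodes a surrogate light chain, read 5044 and 888 in EnhDel and 14610 and 21501 in control. Of the gate's own genes, Enpep, which encodes BP1, was well above background on no array, while Cd24a, the gene of CD24, read 4697 and 1909 in EnhDel and 4888 and 5816 in control. The B-lineage factor Pax5 was well above background on 1 of the 4 arrays. Markers of plasmacytoid dendritic cells were thus measured in both groups, beside those of early B cells.

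Monocyte, macrophage and neutrophil markers summed to 14697 and 30654 in EnhDel and 42958 and 43278 in control, with Ltf and Ngp well above background on no array. T-cell markers summed to 26581 and 34349 in EnhDel and 18486 and 17127 in control, with Themis well above background on no array. Erythroid and megakaryocyte markers summed to 1241 and 1640 in EnhDel and 506 and 726 in control, and 8 and 9 of 9 were well above background on the EnhDel arrays, against 3 and 4 on the control arrays. The B-lineage and myeloid sums were thus lower in EnhDel with no overlap, and the T-cell and erythroid sums higher. The gap between the T-cell sums rested on Cd4, which plasmacytoid dendritic cells also carry. Without Cd4 the sums were 11126 and 6299 in EnhDel and 9368 and 9087 in control, which overlap. Gene by gene, 7 of 10 tested T-cell markers, Cd4 among them, were higher with no overlap and 0 lower. Their median difference was 0.84. Among all genes, 27.2% were higher with no overlap and 16.7% lower. NK and innate lymphoid markers summed to 17032 and 14254 in EnhDel and 17354 and 15006 in control, and Il18rap was well above background on no array. Most of that sum was Klrd1, and without it the sums were 2773 and 3455 in EnhDel and 2219 and 1681 in control. Of 10 tested NK markers, 4 were higher with no overlap (Gzmb, Eomes, Il2rb and Nkg7) and 1, Klrk1, was lower. Against this stood 27.2% higher and 16.7% lower among all genes. The median difference of the NK markers was 0.61. Gzmb was not well above background in control and entered the fit through EnhDel alone. In such bulk samples, fewer cells of a type and less RNA per cell cannot be told apart. The part of these cell types in the differences below was not tested.

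The 3 Runx genes share a feature in their promoters that sets them beside each other before their levels are read. Each has a promoter with 2 copies of ACCACA, the letters that Runx proteins recognise, spaced by GA. The stretches below, 30 bases each from RefSeq promoters of build GRCm38.p6, are written 5′ to 3′ on the strand of the gene, with the Runx letters in capitals.
Runx1, chr16:92826025-92826054, minus strand: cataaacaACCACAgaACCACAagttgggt
Runx2, chr17:44814583-44814612, minus strand: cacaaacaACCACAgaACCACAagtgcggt
Runx3, chr4:135120503-135120532, plus strand: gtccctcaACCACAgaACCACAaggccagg
The pair begins 28 bases downstream of the annotated start in Runx1, 23 bases downstream in Runx2 and 134 bases upstream in Runx3.

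Promoters of 250 bases before to 50 bases after the start were matched for 6 of the 7 members, 9 promoters in all, with none for Runx1t1. Both strands were searched. ACCACA occurred in 5506 of 32851 promoters (16.8%), while the pair ACCACAGAACCACA, which holds ACCACA by construction, occurred in 4 (0.0122%). These 4 were 1 promoter each of Runx1, Runx2 and Runx3 and that of Gm16225, whose window overlaps that of Runx3 on the opposite strand. Runx2 held 3 copies of ACCACA in all. The second promoters of Runx1 and Runx3, and those of Cbfb, Cbfa2t2 and Cbfa2t3, held none. The C/EBP letters TTGCNNAA occurred in 3547 promoters (10.8%) and, among the members, in that of Runx2. A match of letters describes the sequence and does not show binding. The pair thus stood in all 3 Runx genes, whose levels differed in the ways given next.

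Runx1 signal was lower in EnhDel than in control with both of its probes and with no overlap on either, and was the only one of the 3 Runx genes for which this was so. Runx1 is the family member required for blood stem cells to arise and for B-cell, platelet and myeloid maturation. Probe 1 (mm9, chr16:92605785-92605844, minus strand) read 763 and 837 in EnhDel and 1411 and 1489 in control. Probe 2 (mm9, chr16:92604413-92604472, minus strand) read 747 and 561 in EnhDel and 1240 and 1371 in control. The 2 EnhDel arrays lay below the 2 control arrays on either probe, with a gap wider than the spread inside either group. The probes sit 1372 bases apart and share no sequence, as the first 30 of their 60 bases show, written 5′ to 3′ from the array's own design file with no letters marked.
Runx1 probe 1: caggagggcccttggaggccaccaggaaga
Runx1 probe 2: tgtgcatcgtgtcactgtaaatgtaatggt
Their exon or UTR is not given, because an annotation of mm9 was not used here.

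By its brighter probe, probe 1, Runx1 differed by -0.86 ± 0.15 (SE, n = 2 per group), with a 95% interval of -1.27 to -0.45. That is 1.81-fold lower in EnhDel, with an interval of 1.37 to 2.41. The unadjusted p was 0.00378 and the limma adjusted p (Benjamini-Hochberg) 0.233, so the gene did not pass the threshold. Of all 19405 genes, 3.74% had a difference as low, and 4.17% were lower with an unadjusted p under 0.05. Probe 2 differed by -1.01 ± 0.21, with an adjusted p of 0.274 over all probes in limma. Without EnhDel replicate 2 the Runx1 difference was -0.93, and without control replicate 1 it was -0.90. Without EnhDel replicate 1 it was -0.79. Over all settings tried it ranged from -1.03 to -0.73.

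**Figure D1:**
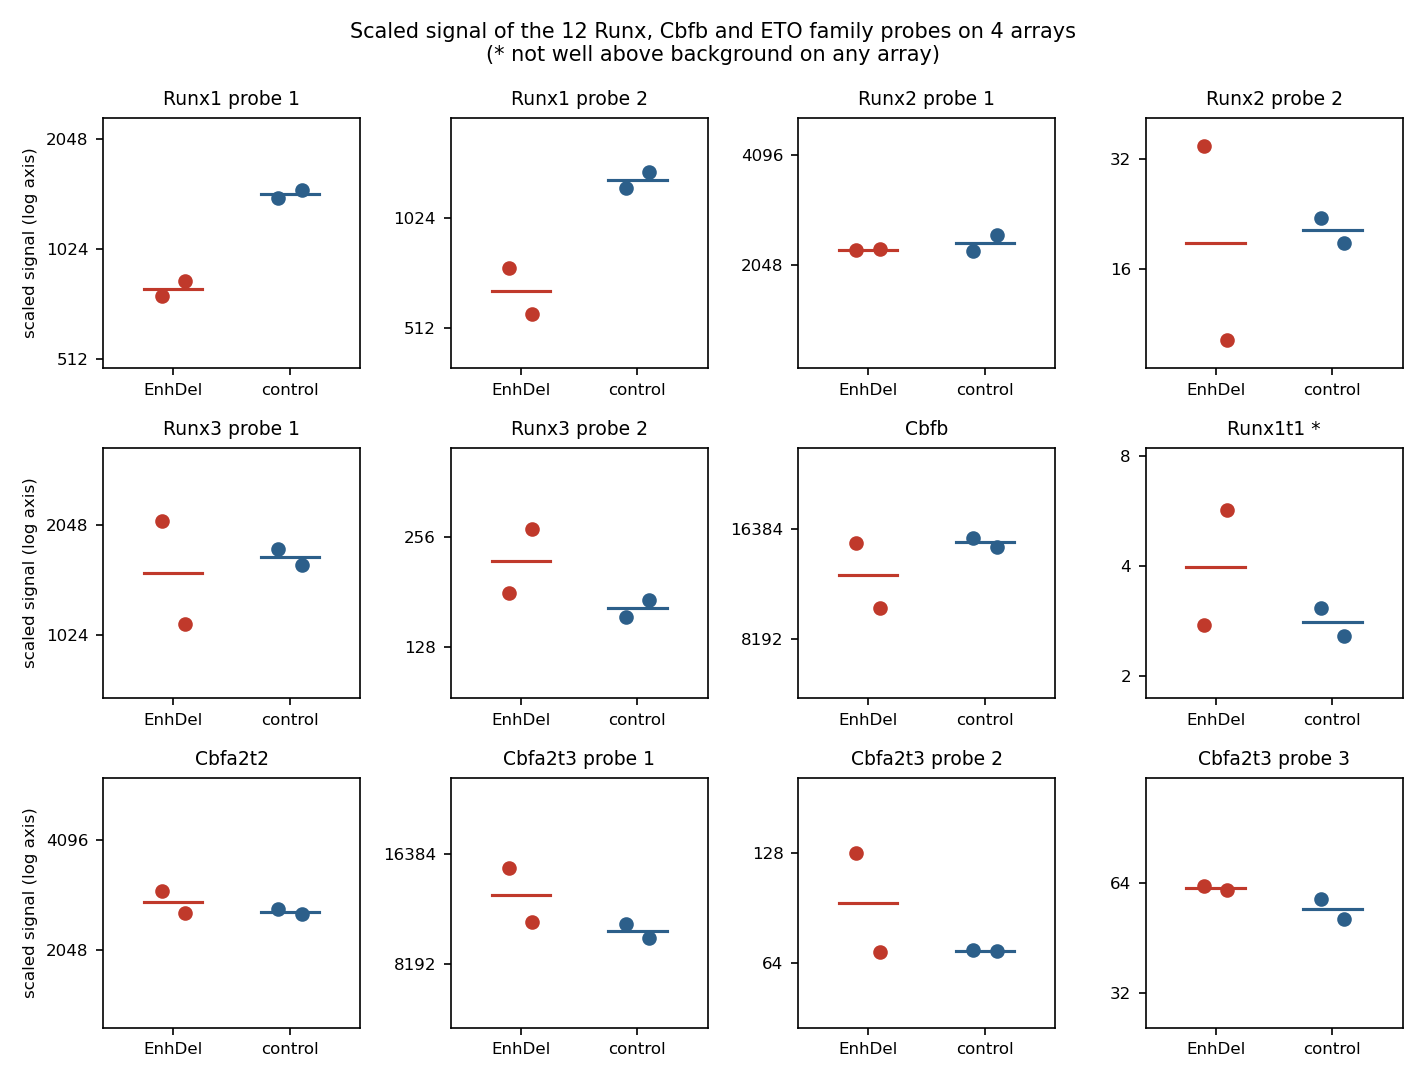
Scaled signal (vertical log axis) of the 12 probes of the Runx, Cbfb and ETO genes, with a point for each array, EnhDel left of control, and a line at the mean of the log2 values (n = 2 per group). Both Runx1 probes sit lower on the 2 EnhDel arrays than on the 2 control arrays, Runx2 probe 1 is nearly level, and the EnhDel arrays spread widely for Runx3 and Cbfb; the Runx1t1 probe was not well above background on any array.

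Runx2, the regulator of bone formation that is also expressed in plasmacytoid dendritic cells, was nearly level. Probe 1 (mm9, chr17:44744925-44744984, minus strand) read 2246 and 2262 in EnhDel and 2235 and 2474 in control. The EnhDel values lay inside the control range. The difference was -0.06 ± 0.15 (SE, n = 2 per group), with a 95% interval of -0.47 to 0.35 and a limma adjusted p (Benjamini-Hochberg) of 0.899. The interval is narrow enough to leave out the Runx1 estimate of -0.86, but the difference between the 2 genes' differences was not tested. It was -0.07 with EnhDel replicate 2 left out and -0.13 with control replicate 1 left out, and it turned to 0.01 when control replicate 2 was left out.

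Runx2 has a second probe 206.2 kb upstream of the first (mm9, chr17:44951128-44951187, minus strand), and its sequence is shown because it reads a different end of the gene. The first 30 of its 60 bases, 5′ to 3′, hold the letters ATG, in capitals.
Runx2 probe 2: aaaggagggactATGgcgtcaaacagcctc
It read 34.8 and 10.3 in EnhDel and 22.2 and 18.9 in control, and stood well above background on EnhDel replicate 1 and on both control arrays, but not on EnhDel replicate 2. The EnhDel arrays lay on either side of the control arrays, and the difference was -0.11 ± 0.62, with a limma adjusted p of 0.957. The level at this end of the gene could not be compared between groups at this brightness.

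Runx3, known for silencing Cd4 and for cytotoxic T cells, NK cells and dendritic cells, gave no single direction. Probe 1 (mm9, chr4:134733846-134733905, plus strand) read 2092 and 1095 in EnhDel and 1754 and 1586 in control. EnhDel replicate 1 was the highest and EnhDel replicate 2 the lowest of the 4 arrays. Probe 2 (mm9, chr4:134731959-134732018, plus strand), 1887 bases away, read 180 and 269 in EnhDel and 154 and 172 in control. Here both EnhDel arrays lay above both control arrays, and EnhDel replicate 2 was the highest. The 2 EnhDel arrays thus stood in opposite order on the 2 probes.

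Probe 1 gave a Runx3 difference of -0.14 ± 0.35 (SE, n = 2 per group), with a 95% interval of -1.09 to 0.80 and a limma adjusted p (Benjamini-Hochberg) of 0.899. Probe 2 gave 0.43 ± 0.25, with a limma adjusted p of 0.61. Their mean gave 0.15. Leaving out EnhDel replicate 2 turned the probe 1 difference to 0.33, and leaving out EnhDel replicate 1 gave -0.61. With control replicate 1 left out it was -0.07. The direction of Runx3 is therefore not settled by these arrays.

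Runx3 and Runx1 share part of their function in lymphoid cells. The log2 ratio of Runx3 to Runx1 was therefore also taken within each array, where scaling between arrays cancels. It was 1.46 and 0.39 in EnhDel and 0.31 and 0.09 in control. Both EnhDel ratios lay above both control ratios, EnhDel replicate 2 by little. The difference of 0.72 had an exact permutation p of 0.333 (two-sided, n = 2 per group), which is the smallest p that 2 against 2 arrays can give. Median scaling, the filters on dim probes, the replicate block and the intensity trend could not change it and left it at 0.72. In the other settings and probe pairs it stayed above 0. It ran from 0.18 without EnhDel replicate 1 to 1.44 with probe 2 of both genes, and was 1.25 without EnhDel replicate 2. By the brightest probes it is the Runx3 difference of -0.14 minus the Runx1 difference of -0.86.

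Cbfb, the partner that all 3 Runx proteins need, had a wide spread in EnhDel. Its probe (mm9, chr8:107741792-107741851, plus strand) read 14999 and 9944 in EnhDel and 15463 and 14638 in control. EnhDel replicate 1 lay between the control arrays and EnhDel replicate 2 below them. The difference was -0.30 ± 0.25 (SE, n = 2 per group), with a 95% interval of -0.97 to 0.37 and a limma adjusted p (Benjamini-Hochberg) of 0.712. The value rested on EnhDel replicate 2: without it the difference was -0.0044. With EnhDel replicate 1 left out, Cbfb differed by -0.60, and with control replicate 1 left out by -0.26.

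**Figure D2:**
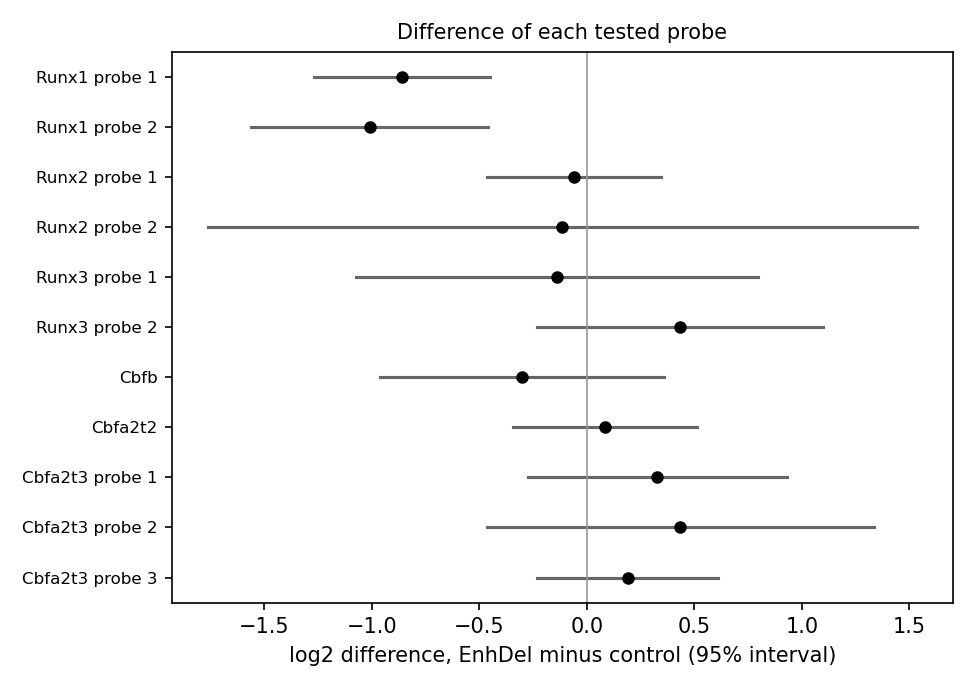
Log2 difference, EnhDel minus control (horizontal axis), of the 11 tested member probes, with a point at the estimate and a line for limma's 95% interval (n = 2 per group). The intervals of both Runx1 probes lie below 0, and those of the other 9 probes cross it.

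Among the ETO genes, Cbfa2t3 (ETO2), which in blood cells works within the Scl and Gata complex and holds progenitors back from maturing, was somewhat higher in EnhDel with its brightest probe. Probe 1 (mm9, chr8:125154010-125154069, minus strand) read 15022 and 10650 in EnhDel and 10532 and 9635 in control. Both EnhDel arrays lay above both control arrays, EnhDel replicate 2 by a narrow margin. The difference was 0.33 ± 0.22 (SE, n = 2 per group), with a 95% interval of -0.28 to 0.93 and a limma adjusted p (Benjamini-Hochberg) of 0.656. Leaving out EnhDel replicate 2 gave 0.58, and leaving out EnhDel replicate 1 gave 0.08. With control replicate 1 left out it was 0.39, and normexp background correction gave 0.06.

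The dimmer Cbfa2t3 probes gave the same sign. Probe 2 (mm9, chr8:125162758-125162817, minus strand) read 128 and 68.6 in EnhDel and 69.7 and 69.1 in control, so that EnhDel replicate 1 alone stood apart and the groups overlapped. Probe 3 (mm9, chr8:125152161-125152220, minus strand) read 62.7 and 61.1 in EnhDel and 57.9 and 50.9 in control, with no overlap. Their differences were 0.43 ± 0.34 and 0.19 ± 0.16, and neither passed the adjusted threshold in limma.

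Cbfa2t2 (MTGR1), a corepressor known for its part in the intestine's secretory cells and in germ cells, was level. Its probe (mm9, chr2:154364934-154364993, plus strand) read 2973 and 2584 in EnhDel and 2662 and 2569 in control, and the groups overlapped. The difference was 0.08 ± 0.16 (SE, n = 2 per group), with a 95% interval of -0.35 to 0.51 and a limma adjusted p (Benjamini-Hochberg) of 0.869. With EnhDel replicate 2 left out it was 0.19, and with control replicate 1 left out 0.11. It turned to -0.02 when EnhDel replicate 1 was left out. Runx1t1 (ETO), the founding member and the fusion partner of human RUNX1, was not measurable. Its probe (mm9, chr4:13818189-13818248, plus strand) read 2.77 and 5.71 in EnhDel and 3.08 and 2.57 in control, not well above background on any array, and was not tested.

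Of the 12 member probes, 10 were well above background on all 4 arrays and 11 were tested. Among these 11, 2 were lower in EnhDel with no overlap, against 16.9% of all 24298 tested probes, and 3 were higher with no overlap, against 26.9%. By brightest probe, 6 of the 7 members were tested. Runx1 alone was lower with no overlap, as were 16.7% of all genes, and Cbfa2t3 alone was higher with no overlap, as were 27.2%. These shares are close to those over all genes. Runx1 alone had an unadjusted p under 0.05.

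The authors' deposited table gives 1 value per gene, which for the members lay within 0.091 of the average over their probes. On its log2 scale Runx1 stood at 9.6 and 9.4 in EnhDel and 10.3 and 10.5 in control, a difference of -0.9. Runx3 stood at 9.5 and 9.1 in EnhDel and 9.2 and 9.2 in control in the authors' deposited table, and Cbfb at 13.5 and 13 in EnhDel and 13.6 and 13.6 in control. In the authors' deposited table Cbfa2t3 differed by 0.25, Cbfa2t2 by 0 and Runx2 by -0.05. Runx1 was thus the member with the largest difference there too.

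**Figure D3:**
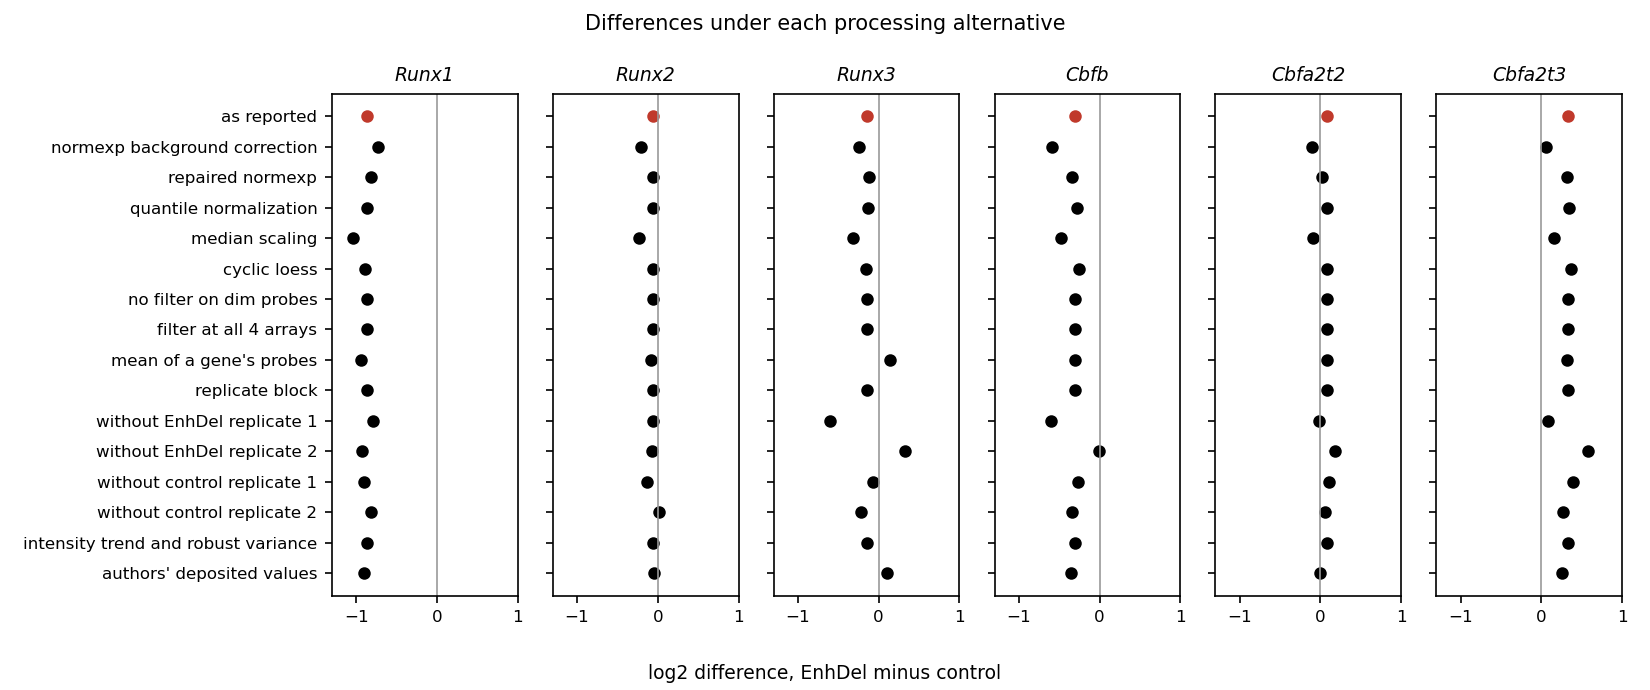
Log2 difference, EnhDel minus control (horizontal axis), of the 6 tested members under each way of processing (rows), with the value as reported in red. Runx1 stays between -1.03 and -0.73, while Runx2, Runx3 and Cbfa2t2 lie on both sides of 0.

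The genes whose pattern over the 4 arrays was most like that of a Runx gene were sought among 18216 genes, by Euclidean distance between log2 values centred on each gene's mean. For Runx1 these were H3c7, a histone gene, at a distance of 0.108, Hopx, a homeodomain-only protein, at 0.114, and Prpf19, a splicing factor, at 0.120. Prpf19 read 637 and 714 in EnhDel and 1114 and 1144 in control. For Runx2 they were Atxn10, Senp1 and Tarbp2, at 0.00327, 0.0170 and 0.0212, all nearly level. For Runx3 they were Kctd20, Ppp4r1 and Klhl2, at 0.0493, 0.0661 and 0.0732. Each of these 3 was highest on EnhDel replicate 1 and lowest on EnhDel replicate 2, as was Runx3 probe 1. With 4 arrays, such a likeness is a description only.

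Corepressors that bind Runx or ETO proteins were examined next: 17 of 17 were tested and 0 passed the adjusted threshold in either direction. At an unadjusted p under 0.05, 2 were lower and 1 higher, against 4.17% and 6.83% of all genes, and the median difference was -0.03, against 0.059 over all genes. Zbtb16 (PLZF), a zinc-finger repressor that recruits ETO proteins, read 211 and 126 in EnhDel and 47.8 and 70.9 in control, a difference of 1.48 ± 0.35 (SE, limma adjusted p 0.313). Gfi1, a repressor of the myeloid and lymphoid lineages that binds ETO, read 217 and 128 in EnhDel and 369 and 359 in control, a difference of -1.13 ± 0.30 (limma adjusted p 0.345), and -0.35 after normexp. Tle1, a Groucho protein that binds the tail of Runx proteins, read 2144 and 1416 in EnhDel and 3171 and 2619 in control, a difference of -0.73 ± 0.27 (limma adjusted p 0.449), and -0.30 as the mean of its probes. Neither group overlapped the other in these 3 genes, which were named for their small p. Of all 17, 4 were lower and 2 higher with no overlap, against 16.7% lower and 27.2% higher among all genes. With EnhDel replicate 1 left out, Gfi1 and Tle1 differed by -1.51 and -1.03, and with EnhDel replicate 2 left out by -0.75 and -0.43. Zbtb16 differed by 0.93 with repaired normexp.

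The deacetylases Hdac2 and Hdac3 differed by -0.23 and -0.20, and Zfpm1 (Fog1), the partner of Gata1, by 0.26. Hdac2 turned to 0.87 after normexp. Without EnhDel replicate 2, Hdac3 differed by -0.015 and Hdac2 by -0.11, and without control replicate 1 Zfpm1 differed by 0.013. Ncor1, Sin3a and Sin3b, scaffold proteins of corepressor complexes, differed by 0.09, 0.19 and 0.06.

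Of the coactivators and modifiers of Runx1, 12 of 12 were tested and 0 passed the adjusted threshold; 1 was higher at an unadjusted p under 0.05, against 6.83% of all genes, and the median was 0.01. Elf4 (MEF), an ETS factor that pairs with Runx1, read 188 and 168 in EnhDel and 113 and 108 in control, a difference of 0.68 ± 0.15 (SE, limma adjusted p 0.305). Prmt1, which methylates Runx1 and loosens its hold on Sin3a, read 6388 and 11586 in EnhDel and 16037 and 14677 in control, a difference of -0.83 ± 0.33 (limma adjusted p 0.472). The groups did not overlap in either gene, both named for their small p. Of all 12, 2 were lower and 3 higher with no overlap, against 16.7% lower and 27.2% higher among all genes. The Prmt1 difference was -1.26 without EnhDel replicate 2 and -0.41 without EnhDel replicate 1. Kmt2a (Mll1), a histone methyltransferase that keeps Runx1 stable, differed by 0.49, the acetyltransferase gene Crebbp by 0.42, the kinase gene Src by 0.61 and the remodeller gene Smarca4 by -0.21. The differences of Crebbp and Smarca4 rested in part on EnhDel replicate 2: without it they were 0.22 and -0.096. That of Src rested almost wholly on EnhDel replicate 2, and was 0.063 without it. Src read 16.3 and 35.1 in EnhDel and 19.3 and 12.7 in control, with overlap. These values lie near the lowest scaled signals well above background, 12.2 to 14.8. The Kmt2a difference was larger without EnhDel replicate 2, at 0.75. With EnhDel replicate 1 left out Kmt2a differed by 0.23. Ep300, Kat6a and Ets1, which help Runx1 to activate, differed by -0.05, 0.16 and -0.10.

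Of the E proteins and the Scl and Gata partners that meet ETO proteins in a complex, 12 of 12 were tested and 0 passed the adjusted threshold. At an unadjusted p under 0.05, 1 was lower and 2 were higher, against 4.17% lower and 6.83% higher among all genes, and the median was 0.06. Lyl1, a close relative of Scl that acts in early lymphoid progenitors, read 3615 and 3216 in EnhDel and 7160 and 7339 in control, a difference of -1.09 ± 0.15 (SE, limma adjusted p 0.195). Tal1 (Scl), which drives red cells and megakaryocytes, read 137 and 92.0 in EnhDel and 40.9 and 41.8 in control, a difference of 1.44 ± 0.24 (limma adjusted p 0.221). Gata1 read 213 and 89.2 in EnhDel and 27.2 and 37.8 in control, a difference of 2.11 ± 0.48 (limma adjusted p 0.305). So within this complex Lyl1 was lower and Tal1 and Gata1 were higher in EnhDel, with no overlap in any of the 3. These genes were named for their small p. Of all 12, 2 were lower and 3 higher with no overlap, close to the 16.7% lower and 27.2% higher among all genes. Repaired normexp gave smaller differences of 0.75 for Tal1 and 1.08 for Gata1, and the authors' deposited values gave 0.75 and 1.10. With EnhDel replicate 1 left out, Lyl1 differed by -1.17, Tal1 by 1.15 and Gata1 by 1.48.

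Gata2, the progenitor member of that family, differed by 1.04 with no overlap. It differed by 0.40 without EnhDel replicate 2 and by 1.68 without EnhDel replicate 1. Tcf3 (E2A) differed by -0.19, Ldb1 by 0.23 and Lmo2, which bridges Ldb1 and Scl, by 0.05. Tcf4 (E2-2), the E protein of plasmacytoid dendritic cells, differed by 0.09. Erythroid and megakaryocyte markers, whose sums are given above, were higher in EnhDel like Tal1 and Gata1, and their part in these values was not tested.

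**Figure D4:**
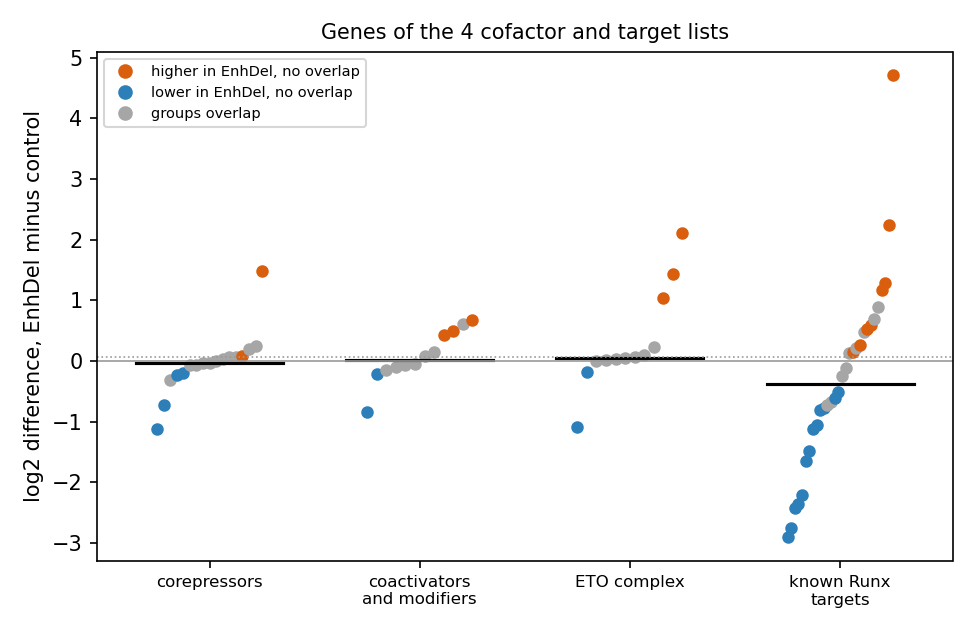
Log2 difference, EnhDel minus control (vertical axis), of each tested gene in the 4 lists, coloured by whether the groups overlapped, with a black line at each list's median and a dotted line at the median of all genes (0.059). The Runx target genes run from -2.91 to 4.72 with a median of -0.38, and the other lists have medians from -0.03 to 0.06; the highest target point, Gzmb, was not well above background in control, so its height is not a measured size.

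Known Runx target genes were the list with the widest spread. Of 32, 30 were tested and 0 passed the adjusted threshold; Csf2 and Itgae were not tested, being too dim. At an unadjusted p under 0.05, 11 were lower and 6 higher, against 4.17% lower and 6.83% higher among all genes. With no overlap 13 were lower and 8 higher, against 16.7% lower and 27.2% higher among all genes. The median was -0.38. Over all 4 lists, 23 of 70 tested genes (32.9%) had an unadjusted p under 0.05, against 11% of all genes. The lists were put together with results of these data known, and 12 of the 32 targets also stand among the cell-type markers above, so the targets are not independent of those markers.

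The lower targets included genes of several lineages. Kit, the stem cell factor receptor, read 244 and 240 in EnhDel and 419 and 413 in control, a difference of -0.78 ± 0.14 (SE, limma adjusted p 0.243), and -0.24 after normexp. Ebf1, the factor that specifies B cells, read 156 and 59.5 in EnhDel and 401 and 602 in control, a difference of -2.35 ± 0.53 (limma adjusted p 0.304), and -1.13 after normexp. Csf1r, the macrophage growth factor receptor and a classic Runx1 and C/EBPα target, read 786 and 1646 in EnhDel and 3679 and 3432 in control, a difference of -1.64 ± 0.39 (limma adjusted p 0.319). That is the value of its brightest probe. As the mean of its probes Csf1r differed by only -0.52, so its probes did not all differ alike. Csf1r differed by -0.45 with the authors' deposited values, and by -2.18 without EnhDel replicate 2. Cebpa, given above, belongs to this list as well. In all 4 genes both EnhDel arrays lay below both control arrays. With EnhDel replicate 1 left out, Kit differed by -0.79, Ebf1 by -3.05 and Csf1r by -1.11.

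The share of targets higher with no overlap was close to that of all genes. At an unadjusted p under 0.05, 6 of the 30 tested were higher, a larger share than the 6.83% of all genes. Among the higher targets were a cytotoxic and a megakaryocyte gene. Gzmb, the granzyme B gene, read 73.1 and 237 in EnhDel and 4.64 and 5.35 in control, where it was not well above background. As processed here, and against the lowest measurable signal of the control arrays, it was at least 9.69-fold higher in EnhDel (limma adjusted p 0.194). Itga2b, a megakaryocyte integrin gene that Runx1 regulates, read 14.1 and 28.5 in EnhDel and 3.21 and 5.53 in control, not well above background in control and at least 1.47-fold higher in EnhDel (limma adjusted p 0.273). Without EnhDel replicate 2 the bounds were 5.38-fold for Gzmb and 1.04-fold for Itga2b. The bounds hold for this processing only. With repaired normexp the log2 differences were 1.65 for Gzmb and 0.41 for Itga2b. With the authors' deposited values they were 1.85 and 0.45. All of these lie below the log2 bounds of 3.28 for Gzmb and 0.56 for Itga2b. Both genes entered the fit through EnhDel alone, and their p-values rest on control values that were not well above background. Spi1 (PU.1), the gene that Runx1 opens in myeloid and early B cells, differed by -0.25 with overlap.

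Of the targets silenced or activated by Runx factors in T cells, Cd4 read 15454 and 28049 in EnhDel and 9119 and 8040 in control, a difference of 1.28 ± 0.33 (SE, limma adjusted p 0.339). Cd8a differed by 0.21 and Zbtb7b (ThPOK) by -0.12, with overlap in both. The letters ACCACA occurred in the promoters of 7 of the 26 target genes that had one in the RefSeq table, and the pair of sites in 0. A gene was counted if any of its promoters held the letters. The 16.8% given above is a share of promoters, so it is not a like measure.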

How the data were processed

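RNA of 4 sorted samples had been amplified, labelled with Cy3 and hybridised to 1-colour Agilent arrays, per the labels' protocols. The deposited scanner files give the intensity of 44397 spots per array as read by Feature Extraction 10.7.3.1, with probe positions on mouse build mm9, per the file headers. The authors also deposited a table of 31597 rows on a log2 scale with 1 decimal, made by steps that the sources used here do not state. Its values lay within 0.15 of the quantile-normalised log2 median signal, averaged over a name's spots, for 24810 of 24810 names with 1 spot and 6750 of 6761 with several. Its columns had equal medians of 6.5. For the tested members its differences had the sign of the brightest-probe differences, with 2 exceptions. These were Runx3 (0.1 against -0.14) and Cbfa2t2 (0 against 0.08).

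Control spots and flagged spots (126 to 162 per array) were left out. Values were log2 processed signal minus the array's 75th percentile, averaged over a probe's spots. Probes were named by accession through RefSeq (26581 of 39429 matched, assembly GRCm38.p6, for names alone). A gene was its brightest probe, and was tested if both arrays of the EnhDel or of the control group read it well above background (19405 genes, 24298 probes). Groups were compared with limma 3.58.1 in R 4.3.3, with Benjamini-Hochberg adjustment over all genes and a threshold of 0.05. The script was tested on simulated data. All arrays lay on 1 slide and in 1 scan, so slide and scan did not differ between groups. The lowest scaled signals well above background were 12.2 to 14.8, and the number of arrays limits the precision.

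A probe dim in a whole group has only a bound there. The bound sets the bright group's mean against, per array, the higher of the dim probe's value and the lowest signal well above background. The members and lists were chosen with earlier results of these data known. Named besides the members and Cebpa were the 6 genes of smallest unadjusted p in each list and the 3 most like each Runx gene. Other genes were named after their values were seen: the sex-linked genes, Ncor1, Sin3a, Sin3b, Ep300, Kat6a, Ets1, Lmo2, Tcf4, Spi1, Gm16225, Cd4, Cd8a, Zbtb7b, Cd24a, Pax5, Vpreb1, Eomes, Il2rb and Klrk1. Alternatives were normexp (offset 50) with and without repair of 6 spots whose local background exceeded 5 times the median, quantile, median and cyclic loess scaling, 2 filters on dim probes, other uses of a gene's probes, an intensity trend, the replicate block, leaving out single arrays, and the authors' deposited values. Marker sums without the brightest marker, and bounds without EnhDel replicate 2, were added after seeing the data. Samples with the same replicate number did not deviate together (correlation -0.0235).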

Additional observations from a re-analysis of the deposited data

How the results depend on the processing

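No gene passed the adjusted threshold except with median scaling (26) and with single arrays left out (0 to 3017, the last without EnhDel replicate 1; 78 without EnhDel replicate 2 and 3 without control replicate 2). A lone array was there assumed to vary like the other group. Runx1 was lower in every setting, from -1.03 with median scaling, where the median of all genes was -0.12 against 0.06 as reported and 0.21 with normexp. It ranged from -0.93 to -0.79 with single arrays left out. The replicate block left Runx1 at -0.86 with a limma adjusted p of 0.37 and called no gene. The numbers do not pair the samples, and the block changed no call.

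Cbfa2t2 reversed with normexp (-0.11) and median scaling (-0.092), was 0 with the authors' deposited values, and ranged from -0.018 to 0.19 with arrays left out. Runx3 reversed with the mean of its probes (0.15), the authors' deposited values (0.10) and probe 2 (0.43), and ranged from -0.61 to 0.33 with arrays left out. With arrays left out, Runx2 ranged from -0.13 to 0.012. After normexp, Hdac2 was 0.87, Hopx 0.49 and Senp1 0.35. With arrays left out, signs also turned for Atxn10 (-0.14 to 0.014), Kctd20 (-0.57 to 0.29), Klhl2 (-0.70 to 0.31), Ldb1 (-0.024 to 0.48), Ppp4r1 (-0.56 to 0.37) and Tarbp2 (-0.11 to 0.020). The causes were not tested.

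Members lower with no overlap numbered 1 as reported, 4 with normexp, 3 with repaired normexp or median scaling, 2 with quantile, cyclic loess or the authors' deposited values, and 1 to 3 with arrays left out. Members higher with no overlap numbered 1 as reported, 2 with quantile, cyclic loess or the mean of probes, 0 with median scaling or the authors' deposited values, and 1 to 3 with arrays left out. Of the 4 lists' genes, 23 had an unadjusted p under 0.05 as reported, 12 with normexp, 13 with the authors' deposited values, and 13 to 37 with arrays left out. Unadjusted p under 0.05 split into 1325 higher and 809 lower genes as reported, 841 and 986 with quantile, 765 and 1220 with median scaling, 865 and 1100 with cyclic loess, 992 and 901 with repaired normexp, and 896 and 1019 with the authors' deposited values. Both directions together came to 2134 as reported, 1213 with normexp and 935 to 7417 with arrays left out.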
